A study of Mus musculus with 10 samples.

Results

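Besides Bmpr2, 10 genes of the mouse kidney were singled out for a difference between Bmpr2 genotypes: Cwc22, Nckap1, Pak6, Eif3j1, Eif3j2, Gnpda1, Hsd3b5, Azgp1, B4galnt1 and Psmc3ip. They were chosen by the difference in their read counts between kidneys of the mutation types R899X or Delx4 and kidneys of the Rosa genotype. Those differences are therefore described below without a test, and nothing is supported with them. The 10 genes are 10 of the 47729 genes counted, and all 10 were among the 16347 genes with enough reads for a fit. The choice did not use the comparisons of sex and of treatment, which are tested. Azgp1 and Hsd3b5, however, passed the filter on low counts only through mutant libraries in which they were high. Their values in those comparisons are therefore given as descriptions.

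Polyadenylated RNA was sequenced from flash-frozen kidneys in 10 libraries, each a pool of 3 mice. The Rosa groups were control females, control males, 16OHE females and 16OHE males, and the R899X groups were the same 4 combinations. The Delx4 groups were control females and control males, with no 16OHE group. R899X and Delx4 are labelled as Bmpr2 mutation types, Rosa is the genotype they are compared with, and 16OHE is a treatment that the labels do not spell out. Each group had 1 library, so p-values rest on the spread of libraries around the fitted terms and not on the spread between animals. The labels give no strain, age or dose, and no promoter that drives an allele. The series text says that 5 libraries, by number, came from animals given extra copper, and the numbers can be read in more than one way, so both readings were tried.

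From 19.2 to 30.7 M reads per library fell in genes. Levels are given as counts-per-million values (CPM) after TMM scaling (trimmed mean of M-values), and differences as log2 fold changes ± SE from edgeR. Bmpr2 itself, the gene that the mutation types are labelled for, encodes a type II receptor for bone morphogenetic proteins. It had 93.4 to 115 CPM in the 4 Rosa libraries, 223 to 888 in R899X and 210 and 241 in Delx4. The genotype labels and the Bmpr2 reads thus went together in all 10 libraries. Markers of kidney segments were present throughout, from 7300 to 11400 CPM summed for 4 proximal tubule genes, and those fixed for 5 adrenal cortex genes summed to at most 1.13 CPM with Cyp11b1 and Cyp11b2 at 0. In bulk kidney, fewer cells of a type and less RNA per cell cannot be told apart.

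As background, the 10 genes do unrelated work. CWC22 is a spliceosome protein that brings EIF4A3 to spliced RNA, the founding step of the exon junction complex. NCKAP1 is a core subunit of the WAVE complex, which drives actin branching through Arp2/3, and PAK6 is a kinase of the p21-activated family that binds the GTPase CDC42. EIF3J is a loosely bound subunit of the translation initiation factor eIF3, encoded in the mouse by the Eif3j1 and Eif3j2 genes. GNPDA1 converts glucosamine-6-phosphate to fructose-6-phosphate, B4GALNT1 makes the gangliosides GM2 and GD2, and PSMC3IP (HOP2) helps pair homologous DNA in meiotic recombination. HSD3B5 is a steroid reductase best known from the liver of male mice, and AZGP1, zinc-alpha-2-glycoprotein, is a secreted protein known for stimulating lipid breakdown in fat cells.

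Levels of the 10 genes spanned a wide range. Per kilobase of exon, Nckap1 was the most abundant in Rosa kidney, with a mean level of 29.0 CPM per kilobase, followed by Psmc3ip at 9.65 and Gnpda1 at 8.06. Azgp1 was the lowest at 0.0279, with Hsd3b5 next at 0.0968. The other 5 genes lay between 0.776 for B4galnt1 and 6.0 for Eif3j2. The chromosomes were 2 for Cwc22, Nckap1, Pak6 and Eif3j1, 18 for Gnpda1 and Eif3j2, 3 for Hsd3b5, 5 for Azgp1, 10 for B4galnt1 and 11 for Psmc3ip. The Bmpr2 gene itself lies on chromosome 1 and shares a chromosome with none of them. Where the mutant alleles lie in the genome was not measured.

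**Figure D1:**
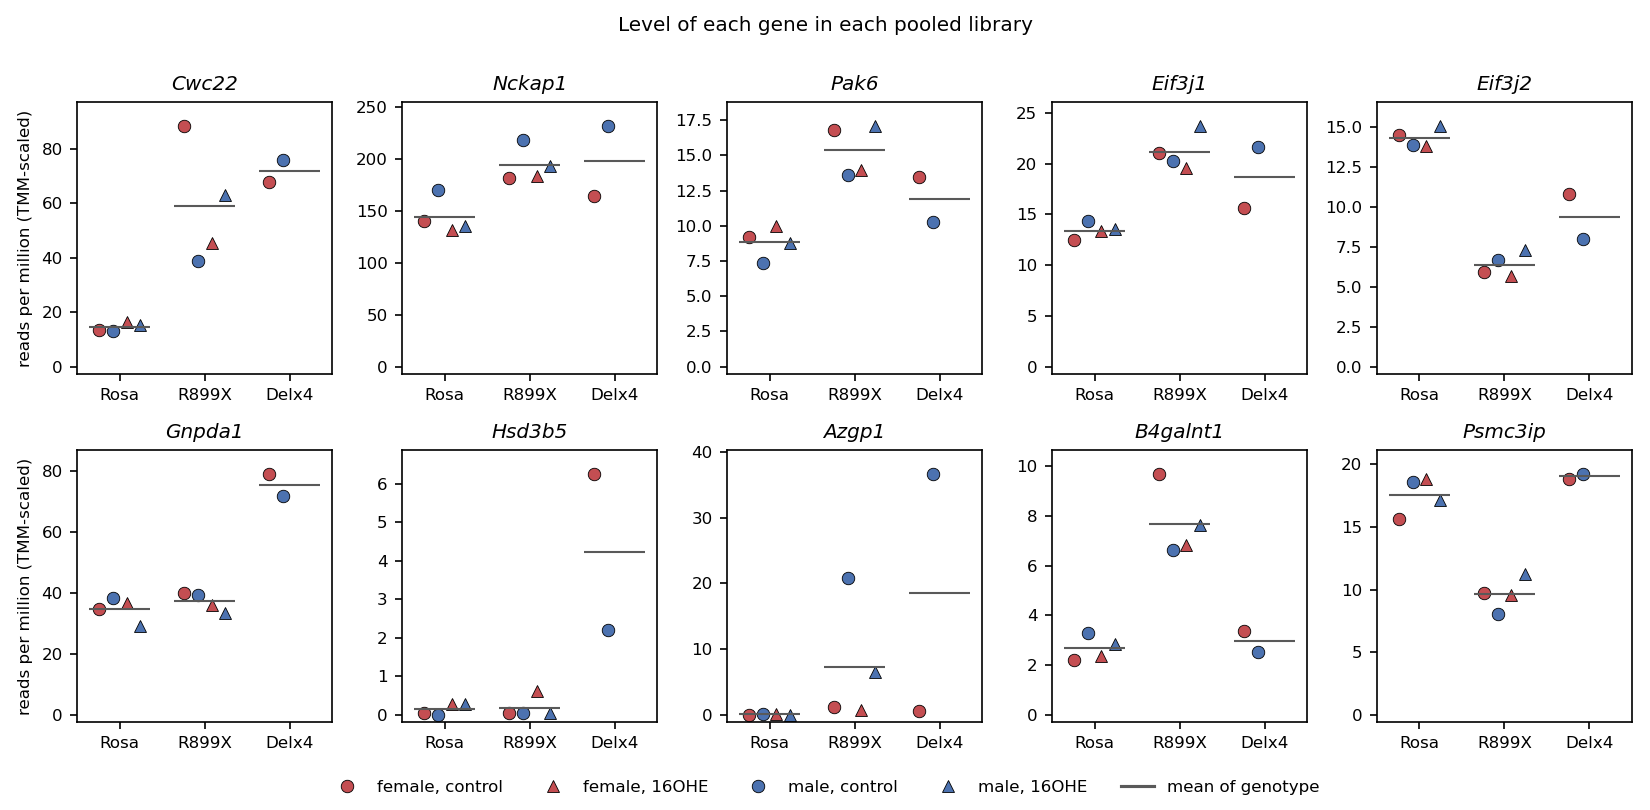
Level of each of the 10 genes in each library, in CPM on the vertical axis, by genotype on the horizontal axis. Red is female and blue male, circles are controls and triangles 16OHE, and the line is the mean of the 4 Rosa, 4 R899X or 2 Delx4 libraries. Cwc22 was at 13.1 to 16.4 in Rosa and at 38.9 or more in each mutant library, while Gnpda1 stood apart in Delx4 only, at 71.8 and 78.9.

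The counts of genes that differed are those the choice fixed. In edgeR's quasi-likelihood test over all genes with Benjamini-Hochberg adjustment at 0.05, 6 genes were called for R899X against Rosa (0.0367% of those tested), of which 5 are among the 10 described here. For Delx4 against Rosa 14 genes were called (0.0856%), of which 4 are among the 10. Nckap1, Pak6 and Eif3j1 were called for neither mutation type. Bmpr2 itself was called for neither (adjusted p = 0.0728 for R899X and 0.499 for Delx4). With a single library left out, the calls among the 10 ranged from 0 to 6 for R899X and from 0 to 4 for Delx4. The one gene called for R899X that is not described here was Gm1821, at -0.86 ± 0.10. By overlap, 8 of the 10 had all 4 R899X libraries outside the range of the 4 Rosa libraries, against 2.19% of all genes tested, and 8 of the 10 had both Delx4 libraries outside that range, against 10.3%. Both shares follow from the choice. The R899X and Delx4 comparisons share the Rosa libraries, so values are set side by side only.

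Cwc22 stood at 13.3 CPM in Rosa control females, 13.1 in control males, 16.4 in 16OHE females and 15.2 in 16OHE males. In R899X it stood at 88.4, 38.9, 45.5 and 63.3 CPM in the same order, and in Delx4 at 68.0 CPM in females and 76.1 in males. All 6 mutant libraries were above all 4 Rosa libraries, and the lowest mutant library, R899X control males, exceeded the highest Rosa library by more than the whole Rosa range. The difference was 2.01 ± 0.23 for R899X and 2.32 ± 0.29 for Delx4 on the log2 scale. The R899X libraries differed among themselves by a factor of 2.27, against 1.25 in Rosa and 1.12 in Delx4. Matched by sex and treatment, the R899X ratio to Rosa was highest in control females, at 6.62 (95% exact binomial interval 5.82 to 7.56), and lowest in 16OHE females, at 2.78 (2.48 to 3.11). These intervals, here and below, cover counting error only.

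The stretch upstream of the Cwc22 start is shown because Cwc22 was higher in both mutation types. It is taken from the RefSeq promoter table (GRCm38.p6), chr2:77946377-77946606, minus strand, 5′ to 3′, and covers 230 bases of the 250 before the start, with the bases nearest the start left out. Capitals mark a match to a searched motif, on either strand.
Cwc22: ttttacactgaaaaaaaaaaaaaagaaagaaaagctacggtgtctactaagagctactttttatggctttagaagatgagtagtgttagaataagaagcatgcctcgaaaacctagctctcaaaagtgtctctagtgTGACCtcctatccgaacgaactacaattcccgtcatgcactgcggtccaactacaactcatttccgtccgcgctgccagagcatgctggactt
The motifs searched were the TATA box as TATAAA, the GC box as GGGCGG, the CCAAT box, a steroid receptor half-site as TGTTCT and a nuclear receptor half-site as GGTCA, each on both strands. None of them contains another. Over the same 230-base window, 11.8%, 29.8%, 32.2%, 15% and 33.1% of 32851 promoters in the table held them, in that order. The Cwc22 window held 1 GGTCA match, on the opposite strand as TGACC, and none of the other 4 motifs. It had 9 CG pairs, against a median of 5 over all promoters. A match is a description of letters and no evidence of binding.

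Part of the Cwc22 transcript has near-identical copies elsewhere on chromosome 2. In the GENCODE M21 transcripts, 18.5% of the 50-base words of Cwc22 also occur in other genes, and 7 of these genes, Gm13691 and Gm13693 to Gm13698, each hold 16.4 or 16.5% of them. None of the 7 had a read in any library, on either strand. They lie 15 tested genes beyond Cwc22 on chromosome 2, beyond Nckap1. Reads that mapped to several places, 8.93 to 10.83% of each library, are listed apart in the deposited tables and enter no gene, so the level of Cwc22 rests on reads that mapped to a single place. The number of genomic copies and the strain of the mice were not measured, and their part in the result was not tested.

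Nckap1 differed far less. It stood at 140, 170, 131 and 135 CPM in Rosa control females, control males, 16OHE females and 16OHE males, and at 182, 218, 184 and 193 in R899X in that order. Delx4 females were at 165 CPM and Delx4 males at 231. All R899X libraries were above all Rosa libraries, by a narrow margin, while Delx4 females lay within the Rosa range. The log2 difference was 0.43 ± 0.09 for R899X and 0.38 ± 0.12 for Delx4, and all 6 matched pairs were higher in the mutant. Nckap1 shared no 50-base word with another gene. Its blood-cell paralog Nckap1l differed by -0.22 ± 0.21 for R899X.

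Pak6 stood at 9.20, 7.32, 9.99 and 8.78 CPM in the 4 Rosa libraries and at 16.8, 13.6, 13.98 and 17.1 in R899X, in the order control females, control males, 16OHE females, 16OHE males. In Delx4 it was at 13.5 CPM in females and 10.3 in males. The R899X libraries lay well above the Rosa range, and the Delx4 male library only just above it. The log2 difference was 0.81 ± 0.12 for R899X and 0.48 ± 0.16 for Delx4. The other kinases of the family that were tested, Pak1 to Pak4, had R899X differences from -0.02 to 0.28 and Delx4 differences from 0.04 to 0.57, and none was called for genotype.

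Eif3j1 and Eif3j2 differed from Rosa in opposite directions. Eif3j1, on chromosome 2, stood at 12.4, 14.3, 13.3 and 13.5 CPM in Rosa and at 21.1, 20.3, 19.5 and 23.7 in R899X, in the same order of groups, and at 15.7 and 21.6 in Delx4 females and males. Eif3j2, on chromosome 18, stood at 14.5, 13.8, 13.8 and 15.03 CPM in Rosa, at 5.89, 6.65, 5.65 and 7.32 in R899X and at 10.8 and 8.0 in Delx4. For each gene, no mutant library overlapped the Rosa range. The log2 differences were 0.66 ± 0.10 and 0.48 ± 0.13 for Eif3j1 and -1.16 ± 0.13 and -0.58 ± 0.17 for Eif3j2, for R899X and Delx4.

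The sum of the pair lay between 25.19 and 30.99 CPM in all 10 libraries. Eif3j1 and Eif3j2 together held 27.7 ± 0.81 CPM in Rosa (SD, n = 4), 27.5 ± 2.46 in R899X (n = 4) and 28.0 ± 2.23 in Delx4 (n = 2). What differed was the share of the pair's reads counted for Eif3j1. It was 48.4 ± 2.02% in Rosa, 76.8 ± 1.26% in R899X and 66.2 ± 9.83% in Delx4. By library it ran from 46.2 to 50.8% in Rosa and from 75.3 to 78.1% in R899X, and it was 59.2% in Delx4 females and 73.1% in Delx4 males. The Delx4 libraries thus lay between the other genotypes and apart from each other, with exact binomial intervals of 55.8 to 62.6% and 69.6 to 76.4%. Both values were computed after the pattern of the pair was known and carry no test.

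The pair is hard to tell apart by sequence. Of the 50-base words of Eif3j2, 90.8% also occur in Eif3j1, and 36.6% of those of Eif3j1 occur in Eif3j2. A further look-alike on chromosome 18 next to Eif3j2, Gm3650, holds 8.1% of the Eif3j1 words. It had 0.911 ± 0.328 CPM in Rosa, 0.414 ± 0.155 in R899X and 0.449 ± 0.087 in Delx4, a log2 difference of -1.10 ± 0.42 for R899X in the direction of Eif3j2. The levels of Eif3j1 and Eif3j2, apart and summed, are therefore uncertain, and the part of read assignment in their differences was not tested. Eif3j1 also overlaps Spg11 on the opposite strand, which differed by 0.41 ± 0.11 for R899X. Of the reads within Eif3j1 on both strands, 8.9 to 15.2% were on the opposite one.

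**Figure D2:**
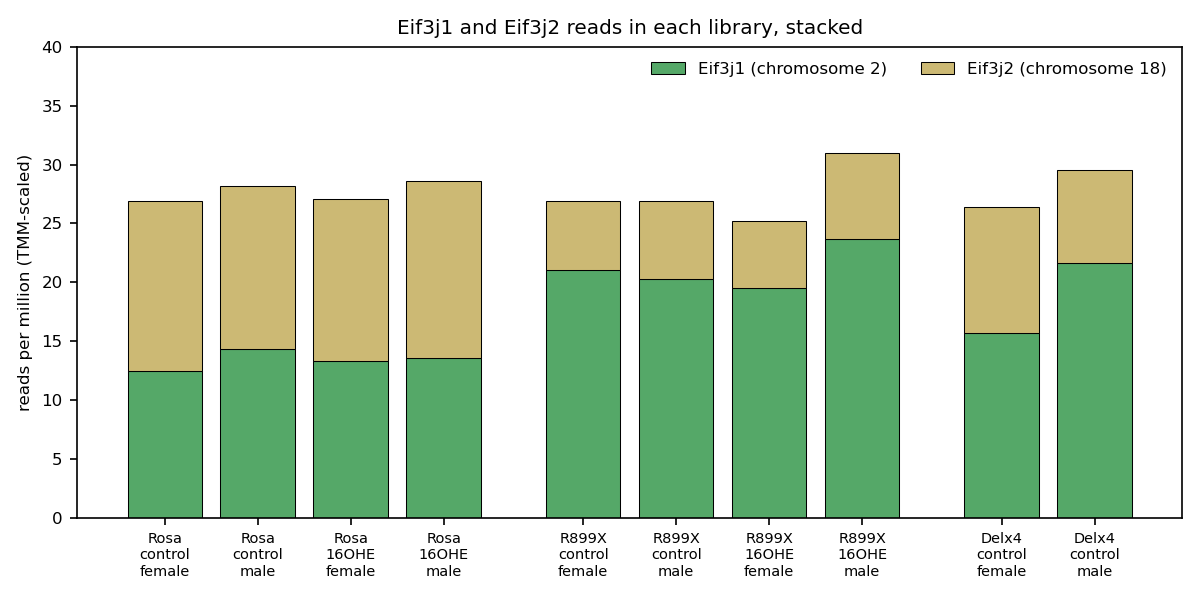
Reads of Eif3j1 (green) and Eif3j2 (yellow) in each of the 10 libraries, stacked, in CPM on a vertical axis from 0. The total height stays between 25.19 and 30.99 in all libraries, while the green part takes 46.2 to 50.8% of the bar in Rosa and 75.3 to 78.1% in R899X.

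Azgp1 was close to absent in Rosa kidney. The Rosa libraries held 0, 3, 1 and 0 reads of it, in the order control females, control males, 16OHE females, 16OHE males. In R899X the counts were 27, 607, 17 and 164 reads in that order, or 1.16, 20.9, 0.711 and 6.45 CPM. In Delx4 they were 19 reads in females and 851 in males, or 0.606 and 36.6 CPM. Every mutant library was above every Rosa library, and within each mutant group the males were far above the females. Over all R899X libraries 815 reads stood against 4 in Rosa, a ratio of 184 after scaling (95% interval 71.6 to 677), and over the Delx4 libraries 870 stood against 3 in the matched Rosa controls, a ratio of 216 (73.8 to 1050). Azgp1 shares no 50-base word with another gene in the transcripts used.

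The stretch upstream of the Azgp1 start is shown because this gene had at most 3 reads in any Rosa library and 17 to 851 in the mutant ones. It comes from the same RefSeq table (GRCm38.p6), chr5:137981271-137981500, plus strand, 5′ to 3′, with motif matches in capitals.
Azgp1: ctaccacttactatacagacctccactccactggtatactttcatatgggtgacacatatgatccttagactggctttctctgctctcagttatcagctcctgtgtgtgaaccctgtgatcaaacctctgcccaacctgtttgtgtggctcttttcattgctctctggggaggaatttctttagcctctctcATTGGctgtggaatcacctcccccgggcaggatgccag
The window held 1 match to the CCAAT box, on the opposite strand as ATTGG, and none of the other 4 motifs. It had 1 CG pair, a count that 20.8% of all promoters do not exceed, and 49.1% G or C letters against a median of 51.7%. The RefSeq start lies 1 base from the GENCODE M21 start. Of the 10 genes, 6 had an entry in the table, namely Cwc22, Pak6, Eif3j1, Hsd3b5, Azgp1 and Psmc3ip. The Eif3j1 window, by contrast, held 26 CG pairs and 5 GC box matches. That of Hsd3b5 held 1 CG pair and none of the 5 motifs, and its RefSeq start lies 15282 bases from the GENCODE one.

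B4galnt1 differed in R899X only. It stood at 2.20, 3.31, 2.37 and 2.85 CPM in Rosa and at 9.67, 6.61, 6.82 and 7.63 in R899X, in the order control females, control males, 16OHE females, 16OHE males. Delx4 females had 3.38 CPM and Delx4 males 2.54, the first just above the Rosa range and the second within it. The log2 difference was 1.51 ± 0.20 for R899X and 0.08 ± 0.27 for Delx4. Slc26a10, a gene of an anion transporter family on the opposite strand that overlaps B4galnt1 and shares 19.4% of its words, had differences of the other sign. It had 10.2 ± 3.06 CPM in Rosa, 6.89 ± 2.37 in R899X and 5.63 ± 1.69 in Delx4, or log2 differences of -0.59 ± 0.13 and -0.92 ± 0.17, and it was called for neither (adjusted p = 0.414 and 0.126).

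Psmc3ip was lower in R899X only. It stood at 15.6, 18.6, 18.8 and 17.1 CPM in Rosa and at 9.71, 8.03, 9.58 and 11.2 in R899X, in the same order of groups. Delx4 females had 18.9 CPM and Delx4 males 19.2, both just above the highest Rosa library. The log2 difference was -0.87 ± 0.11 for R899X and 0.19 ± 0.14 for Delx4. Within Psmc3ip, reads on the opposite strand made up 31.4 to 57.1% of those on both strands. The gene there is Mlx, a transcription factor gene, whose exons share 17.6% of the Psmc3ip words. Mlx itself differed by -0.01 ± 0.08 for R899X and 0.13 ± 0.11 for Delx4.

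Gnpda1 was higher in Delx4 only. It stood at 34.9, 38.3, 36.7 and 29.1 CPM in Rosa and at 40.1, 39.3, 35.99 and 33.4 in R899X, which overlap. In Delx4 it stood at 78.9 CPM in females and 71.8 in males, above every other library. The log2 difference was 1.03 ± 0.10 for Delx4 and 0.10 ± 0.08 for R899X. Gm8615, a processed pseudogene on chromosome 5 that shares 10.9% of the Gnpda1 words, stood at 10.9 to 12.7 CPM in Rosa, 12.35 to 13.75 in R899X and 6.25 and 6.93 in Delx4. Its log2 difference for Delx4 was -0.84 ± 0.13 (adjusted p = 0.0699). The paralog Gnpda2, which does the same reaction, differed by -0.02 ± 0.13 for Delx4.

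Hsd3b5 was also a Delx4 gene, at low levels. The Rosa libraries held 1, 0, 7 and 7 reads and the R899X libraries 1, 1, 15 and 1, in the order control females, control males, 16OHE females, 16OHE males. Delx4 females held 196 reads and Delx4 males 51, or 6.25 and 2.20 CPM. Both were above all 8 other libraries, which did not exceed 0.628 CPM. Against the matched Rosa controls, 247 reads stood against 1, a ratio of 184 with an interval from 32.8 to 7310. Of its relatives, Hsd3b2 stood at 307 ± 34.9 CPM in Rosa and 391 ± 68.4 in Delx4, while Hsd3b1 stood at 0.619 ± 0.417 and 0.434 ± 0.299.

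Several Hsd3b genes lie side by side. Near Hsd3b5 on chromosome 3, Hsd3b2 differed by 0.40 ± 0.14 for Delx4, Hsd3b3 by 0.85 ± 0.34, Gm4450 by 0.62 ± 0.26 and Hsd3b1 by -0.71 ± 0.97, with none called (adjusted p from 0.593 to 0.957). Of the Hsd3b5 words, 18.2% also occur in Gm10681 and in Hsd3b4 and 13.7% in Gm4450. Hsd3b4 held 1 read in all libraries together, and Gm10681 stood at 1.09 ± 0.47 CPM in Rosa and 1.02 ± 0.77 in Delx4.

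Hsd3b5 and Azgp1 are both known as liver genes, so 3 hepatocyte markers were read beside them. Alb, Apoa1 and Serpina1a were all found, and summed to 2.52 to 10.5 CPM in Rosa, 6.99 to 16.5 in R899X and 6.16 to 39.7 in Delx4. Alb was highest, at 35.2 CPM, in Delx4 females, the library with the most Hsd3b5. In Delx4 males, the library with the most Azgp1, Alb was at 5.5 CPM, within its Rosa range of 2.1 to 9.8, and Hsd3b5 was at 2.20 CPM. In R899X control males, Alb was at 6.3 CPM and Azgp1 at 20.9. Serpina1a was at 0 in at least 1 library and reached 0.826 CPM. The part of hepatocyte RNA in the Hsd3b5 level of Delx4 females was not tested. The 4 adipocyte markers summed to 0.945 to 3.52 CPM in Rosa, 0.708 to 15 in R899X and 0.775 to 2.01 in Delx4, and their part in the Azgp1 level was not tested.

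**Figure D3:**
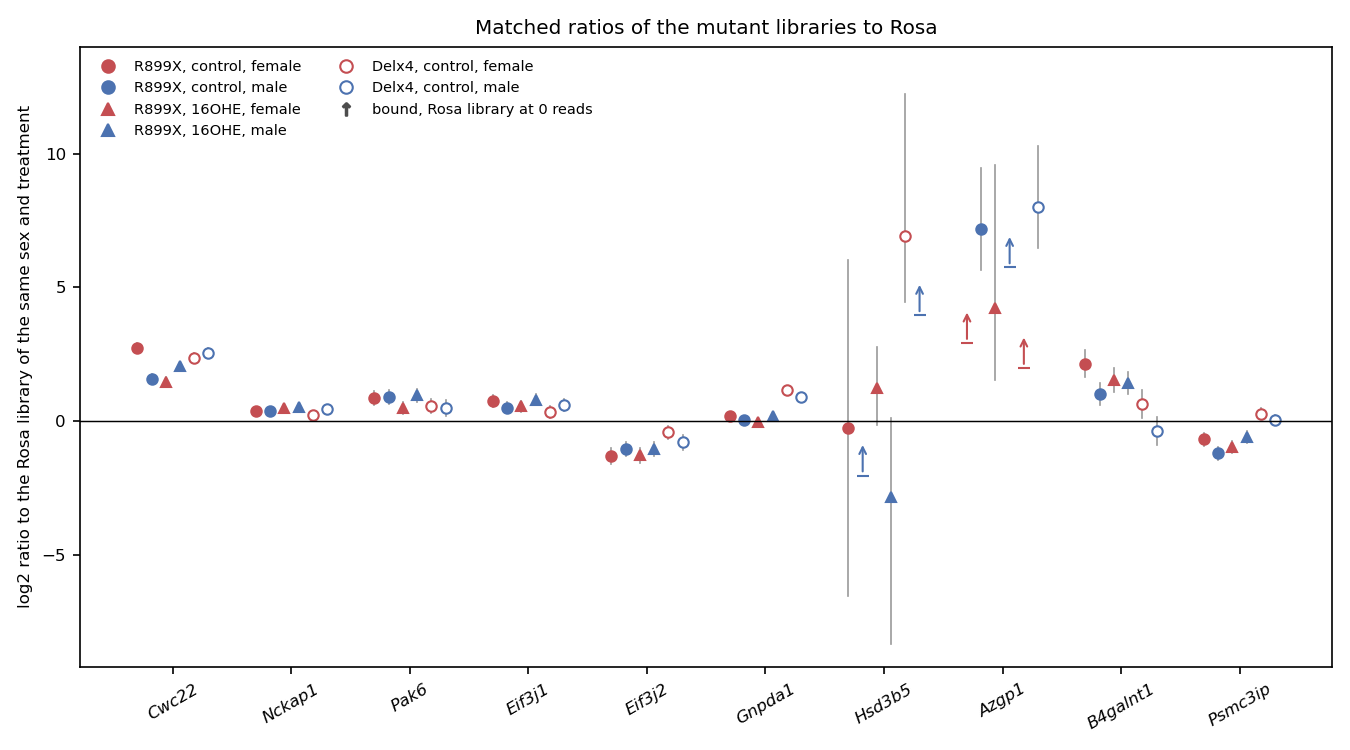
Log2 ratio of each mutant library to the Rosa library of the same sex and treatment on the vertical axis, for the 10 genes on the horizontal axis. Filled symbols are R899X and open ones Delx4, red is female and blue male, circles are controls and triangles 16OHE, the bars are 95% exact binomial intervals of the read counts, and arrows start at the bound from 3 reads where the Rosa library had none. Cwc22 lies above 0 in all 6 pairs and Eif3j2 below, while the Hsd3b5 pairs of R899X have wide intervals on both sides of 0.

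Sex is a comparison that the choice did not use. Azgp1 was higher in males than in females, by 4.46 ± 0.44 on the log2 scale (edgeR's quasi-likelihood test, adjusted p = 0.00019), and it was the only gene of the 10 called, 1 of 10 against 19.3% of all genes tested. The excess came from the mutant libraries, since the Rosa libraries held 4 reads in all. Azgp1 was also kept for the fit through those mutant libraries, so its sex value is given as a description. In R899X controls males had 18 times the female level (95% interval 12.3 to 27.6), in R899X with 16OHE 9.07 times (5.49 to 15.9), and in Delx4 controls 60.5 times (38.5 to 101). Each ratio has 1 library per sex behind it, and the intervals cover counting error only. Over the 16 alternatives tried, the log2 difference ran from 3.63 to 4.93. The alternatives reuse the same mutant libraries, so they add no support.

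The other 9 genes were not called for sex. Hsd3b5 was lower in males by 1.44 ± 0.50 (written as a log2 difference, -1.44, adjusted p = 0.0701), with 196 reads in Delx4 females and 51 in Delx4 males. It was kept for the fit through these Delx4 libraries, so this value is a description. Nckap1 was higher in males by 0.23 ± 0.08 (adjusted p = 0.0727). Their calls were not settled by the 16 alternatives, of which 3 passed for each. The remaining 7 genes had log2 differences from -0.18 to 0.18, with unadjusted p of 0.0567 or more. The median size of the log2 difference was 0.17 over the 10 genes and 0.19 over all genes.

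None of the 10 genes differed past the threshold between 16OHE and control, against 5.79% of all genes called by edgeR. If the copper numbers are library numbers, differences with 16OHE can hardly be told apart from those with copper. 3 of the 10, Hsd3b5, Azgp1 and Gnpda1, had an unadjusted p under 0.05, against 3586 of the 16347 genes tested. DESeq2 called 1 of the 10, against 1505 of all genes. Hsd3b5 had 1, 0, 1 and 1 reads in the Rosa and R899X controls against 7, 7, 15 and 1 with 16OHE. It was kept for the fit through the Delx4 libraries, which have no 16OHE group, so its fitted difference of 2.98 ± 0.77 (adjusted p = 0.0505) rests on these few reads and is given as a description. It passed in 5 of 16 alternatives, with adjusted p from 0.0151 to 0.634, among them those without Rosa 16OHE females (0.0378) and without R899X 16OHE males (0.0299). Azgp1 was lower with 16OHE, at -1.43 ± 0.52 (adjusted p = 0.144). In R899X males it stood at 20.9 CPM without and 6.45 with 16OHE, and in R899X females at 1.16 and 0.711. Without R899X 16OHE males the difference was -0.35, and with copper by list position it was -3.4. It passed in 3 of 16 alternatives. Azgp1 was kept for the fit through the mutant libraries, so these values are descriptions. Gnpda1 stood at -0.18 ± 0.08 (adjusted p = 0.225), and the other 7 genes had log2 differences from -0.14 to 0.15.

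Whether the response to 16OHE or the difference between the sexes depended on R899X was tested with an added term. Over all genes, the share called by edgeR was 0% for 16OHE by R899X (535 genes at an unadjusted p under 0.05, and 3 called by DESeq2) and 0% for sex by R899X (528 genes, and 2 by DESeq2). None of the 10 genes was among the DESeq2 calls. Azgp1 was the only gene of the 10 with an unadjusted p under 0.05 for sex by R899X, at -1.98 ± 0.71 (adjusted p = 0.996). The term sets R899X against Rosa and Delx4 together. Rosa held 4 Azgp1 reads, so for Azgp1 the other side rests mainly on the Delx4 libraries. The Azgp1 value turned to 2.43 without either Delx4 library and to 0.03 in DESeq2, so it has no settled direction. For 16OHE by sex, 2.40% of all genes were called and none of the 10. Azgp1 had -2.0 ± 0.73 (adjusted p = 0.261), that is, a lower ratio of 16OHE to control in males than in females, and it passed in 2 of 16 alternatives, among them that without R899X control males (-2.77, adjusted p = 0.0498). The value was -5.59 and -5.3 without R899X 16OHE females or males, and -1.14 and -1.18 without Delx4 control females or males. Delx4 has no 16OHE group, so its libraries enter only the control side of this term. Azgp1 was kept for the fit through the mutant libraries, so its interaction values are descriptions.

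Copper was read both ways. With the 5 numbers taken as library numbers, the 4 16OHE libraries and R899X control females had copper. No Delx4 library did, so Delx4 could be compared with Rosa only without copper. Under that reading 16OHE and copper can hardly be told apart. With a copper term, the genes called for 16OHE fell from 947 to 13. With the numbers taken as places in the sample list, all 3 genotypes occur on each side, but sex and treatment are not matched. The Rosa libraries with copper are then female and the Delx4 library with copper male, and without copper the reverse. The R899X libraries with copper are those given 16OHE. Ratios under that reading therefore mix copper with sex and treatment. Within the libraries with copper and within those without, under either reading, the R899X to Rosa ratio of mean levels was 2.94 to 4.5 for Cwc22, 2.40 to 3.16 for B4galnt1, 0.434 to 0.470 for Eif3j2 and 0.469 to 0.604 for Psmc3ip. The Delx4 to Rosa ratio was 2.01 to 2.34 for Gnpda1 and 4.80 to 5.45 for Cwc22, and it varied more for Pak6 (1.07 to 1.67), Nckap1 (1.08 to 1.70), Eif3j1 (1.12 to 1.68) and Eif3j2 (0.564 to 0.746). Hsd3b5 had 51 or 196 reads in each Delx4 library against 0 to 7 in each Rosa library. Azgp1 had at least 17 reads in each mutant library and at most 3 in each Rosa library, whichever side they fell on.

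The 4 genes on chromosome 2 raised the question of what lies next to each of the 10. For each, the 10 tested genes on either side in chromosome order were read, 182 distinct genes after leaving out the 10 themselves. None was called for R899X or Delx4. At an unadjusted p under 0.05, 20 of 182 (11%) differed for R899X, against 6.0% of all genes tested, and 22 of 182 (12.1%) for Delx4, against 6.48%. Neighbours share a chromosome and in part a window, since Cwc22 and Nckap1 lie within 10 genes of each other, so these shares are descriptions.

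Around Cwc22 and Nckap1, the genes with the smallest p were scattered among genes without a difference. Zfp385b, directly before Cwc22, differed by 0.44 ± 0.14 for R899X and 0.64 ± 0.18 for Delx4. On either side of the Cwc22 look-alikes, Itgav differed by 0.35 ± 0.12 for R899X, Fam171b, at 0.240 to 1.48 CPM, by 1.23 ± 0.44 for R899X, and Tfpi by 0.42 ± 0.10 for R899X and 0.46 ± 0.13 for Delx4. Beside them lie Zc3h15 (-0.01 ± 0.07 for R899X) and Calcrl (-0.03 ± 0.12 for R899X). These genes were singled out after their values were seen, and none was called (smallest adjusted p = 0.368, for Tfpi in Delx4).

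The stretch of chromosome 2 between Pak6 and Eif3j1 was read gene by gene. Of 75 tested genes there, 17 (22.7%) had an unadjusted p under 0.05 for R899X, 13 of them higher in R899X. For Delx4 it was 9 (12%), 5 of them higher. From Cwc22 to Eif3j1 the R899X count was 34 of 256 (13.3%). Before Cwc22 it was 19 of 481 (3.95%) and after Eif3j1 33 of 498 (6.63%). For Delx4 the counts were 20 (7.81%) from Cwc22 to Eif3j1, 34 (7.07%) before and 27 (5.42%) after. From Cwc22 to Eif3j1, 9 of the 20 were higher in Delx4, and 26 of the 34 in R899X. Ndufaf1, an assembly factor of respiratory complex I, was at 14.5 ± 1.66 CPM in Rosa, 19.7 ± 3.02 in R899X and 19.4 ± 4.45 in Delx4, or 0.44 ± 0.08 and 0.33 ± 0.10. Tgm7, a transglutaminase gene, differed by 3.08 ± 0.57 and 3.38 ± 0.80 at very low levels. It stood at 0 to 0.601 CPM in Rosa, 0.344 to 5.55 in R899X and 0.159 to 1.16 in Delx4, ranges that overlap. Ndufaf1 and Tgm7 were singled out after their values were seen. Neither was called by edgeR's test (smallest adjusted p = 0.139, for Ndufaf1 in R899X). The boundaries of this stretch are genes chosen for their difference, and the share in it carries no test.

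On chromosome 18, 3 of the 20 neighbours of Gnpda1 had an unadjusted p under 0.05 for Delx4 in edgeR's test, and none was called. Of these, 2 were higher, Fgf1 and Spry4, and Rell2, at a mean of 0.517 CPM, was lower, at -1.44 ± 0.57. The genes directly on either side, Rnf14 and Ndfip1, stood at 0.05 ± 0.10 and -0.02 ± 0.11 for Delx4. Fgf1, which encodes a fibroblast growth factor and lies 3 tested genes from Gnpda1, stood at 122 ± 24.1 CPM in Rosa, 121 ± 37.3 in R899X and 217 ± 14.8 in Delx4. Its log2 difference for Delx4 was 1.12 ± 0.19 (adjusted p = 0.0807). Spry4, a feedback inhibitor of such growth factor signals, lies between Ndfip1 and Fgf1 and differed by 0.51 ± 0.16 for Delx4 and 0.08 ± 0.12 for R899X. Near B4galnt1, Eef1akmt3 differed by 0.71 ± 0.21 for R899X. Fgf1, Spry4 and Eef1akmt3 were singled out after their values were seen. Around Azgp1, 0 of 20 neighbours had an unadjusted p under 0.05 for R899X and 3 of 20 for Delx4, all 3 lower.

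**Figure D4:**
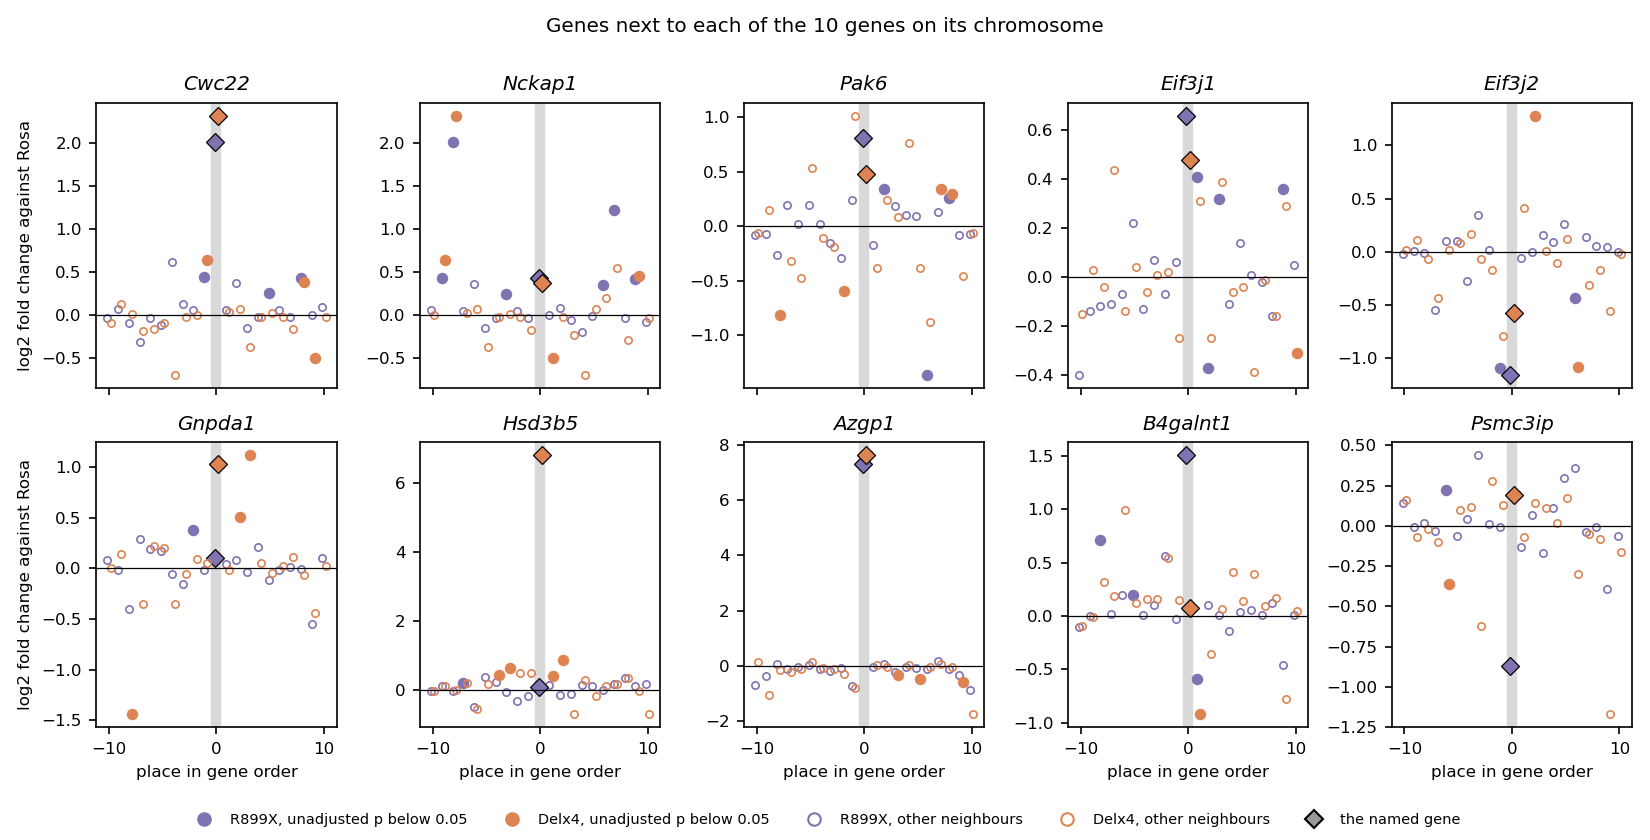
Log2 fold change against Rosa on the vertical axis for the 10 tested genes on each side of each named gene, by their place in chromosome order on the horizontal axis, with a vertical scale of its own in each panel. Purple is R899X and orange Delx4, diamonds are the named gene, filled circles have an unadjusted p under 0.05 and open circles do not. In the Gnpda1 panel, Fgf1 at 1.12 is the filled orange point 3 places to the right and Spry4 at 0.51 the one 2 places to the right. Rell2 at -1.44 is the filled orange point at place -8. The neighbours of Azgp1 stay far below its 7.30 and 7.63, fitted values that rest on 4 Rosa reads.

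Partners of the 10 genes in their pathways were read from 9 lists, fixed with earlier results of these data known. Of 108 tested partners, 0 were called for R899X and 0 for Delx4. At an unadjusted p under 0.05, 0 partners differed for R899X in any list, and at most 2 per list for Delx4. The 12 partners of Cwc22 in the exon junction list, among them Eif4a3 and Upf1, had a median log2 difference of -0.04 for R899X and 0.03 for Delx4. The 12 other eIF3 subunits had medians of -0.04 and -0.01, and the 15 other ganglioside genes 0.01 and -0.02. The 18 other WAVE and Arp2/3 genes had medians of 0.00 and -0.01. The medians of the remaining lists for R899X ran from -0.17 for homologous recombination, with 6 genes, to 0.05 for hexosamine metabolism, with 12.

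For sex, by contrast, 29 of the 108 partners (26.9%) were called, 18 higher and 11 lower in males, against 19.3% of all genes. In the list of steroid dehydrogenases, 6 of 13 were higher in males and 1 lower, with Akr1c14, which reduces steroid hormones, at 3.45 ± 0.30 and Hsd17b11 at 1.92 ± 0.17. Among ganglioside genes 4 of 15 were higher and 4 lower, with Ugcg, which makes the precursor glucosylceramide, at 0.83 ± 0.08. With 16OHE, 7 partners (6.48%, against 5.79% of all genes) were called. Among them were Pak3 at 2.64 ± 0.21, on 0.378 to 4.82 CPM in Rosa, and Lipe, the hormone-sensitive lipase gene, at -0.73 ± 0.11. With copper read by library number, these differences can hardly be told apart from copper. For 16OHE by sex, 4 of the 108 (3.70%, against 2.40% of all genes) were called.

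Genes with the most similar pattern were sought by Pearson correlation of log2 levels over the 10 libraries, after sex and treatment were fitted out. The points share the 3 genotypes, so a high value mainly reports a like genotype pattern, and no p is given. For Eif3j1 the nearest were Ralgapa2 (r = 0.991), Map3k7 (0.979) and Snap23 (0.971). For Nckap1 they were Bahd1 (0.977), Slc30a7 (0.972) and Synj1 (0.971), and for Pak6 Igkv3-1 (0.948), Snap23 (0.943) and Spint1 (0.938). Snap23, Bahd1 and Spint1 lie on chromosome 2 between Pak6 and Eif3j1. For Cwc22 they were Inava, Fgf2 and Gm17202 (0.964 to 0.949) and for Azgp1 Igkv6-13, Pdcd11 and Gm15728 (0.985 to 0.967). For Eif3j2 they were Gm14150, Mpp3 and Mrps36-ps1 (0.966 to 0.953), for B4galnt1 Tgs1, Plxna1 and Meis3 (0.968 to 0.947) and for Psmc3ip Ttc36, Brip1os and Kifc2 (0.954 to 0.942). Gnpda1 and Hsd3b5, the 2 genes higher in Delx4 only, were among each other's 3 nearest (0.932), and both were near Actr8 (0.964 and 0.940).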

How the data were processed

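Kidney RNA of 10 pools of 3 mice was sequenced as stranded libraries, per the labels' protocols. The authors deposited tables of raw gene counts, laid out as STAR does. STAR 2.5.1b and HTSeq are named in the submitters' processing notes, as is the cattle build UMD 3.1, while all 47729 identifiers are mouse Ensembl genes. A mouse build was not given in those sources. Names, chromosomes and gene order were therefore looked up in GENCODE M21, where 47310 identifiers had an entry. Of both strand columns, the fuller was taken (13.8 to 18.4 times the other). From 70.8 to 76.1% of reads were assigned to genes.

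Genes were kept by filterByExpr (minimum count 10, minimum total 15). After TMM scaling, edgeR 4.0.16 (R 4.3.3) modelled the counts on sex, treatment and genotype, and interactions were added in turn. P-values were adjusted by Benjamini-Hochberg over the 16347 genes. The fit was tested on simulated data. The 10 genes and the lists were chosen with earlier results of these data known. Named are the 10 genes, neighbours, paralogs, the 3 most similar genes, called list genes, and those said to be chosen afterwards. Alternatives were DESeq2 1.42.0, its size factors, no filter, unstranded counts, copper terms, fewer libraries, 5 neighbours per side in place of 10, and leaving out each library.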

Additional observations from a re-analysis of the deposited data

Results flagged for a closer look

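Psmc3ip was lower than Rosa in all 4 matched pairs of R899X, with a fitted log2 difference of -0.87, and slightly higher in both matched pairs of Delx4, at 0.19 ± 0.14, a value within 2 SE of 0. The difference between them was not tested.

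Hsd3b5 in R899X 16OHE females, at 0.63 CPM or 15 reads, stood apart from the other 3 R899X libraries, which held 1 read each. The gap to the nearest library took 0.985 of the range, which is what singled it out. These libraries differ in sex and treatment and the counts are low, so this is a description. Of 20 sets of 4 libraries examined, 1 stood out this way, and chance alone gives about 1 in 20.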

How the results depend on the processing

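With 1 library per group, counts of calls moved with single libraries and with the filter. Genes called for R899X numbered 6, and 34 with DESeq2, 26 without the filter, 2 and 1 with copper by library number and list position, and 0 to 8 leaving out each library. Those for Delx4 numbered 14, and 117, 87, 17 and 8 under the same settings, 101 with only the 4 Rosa and Delx4 controls, and 0 to 30 leaving out each library. Those for 16OHE numbered 947, and 1505 with DESeq2, 13 with copper by library number and 396 to 1050 leaving out each library. Those for sex numbered 3150, and 2034 with copper by library number and 1950 to 3114 leaving out each library. 16OHE by sex gave 393, 981 without the filter and 113 to 573 leaving out each library. 16OHE by R899X gave 0, 3 with DESeq2 and 2 without the filter, and sex by R899X 0, 2 and 1.

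Of the 10 genes, 5 were called for R899X, and 8 with DESeq2, 3 with unstranded counts, 3 with only Rosa and R899X, 2 and 1 with the copper terms and 0 to 6 leaving out each library. The count was 0 without Rosa control females, Rosa control males or Rosa 16OHE males, and 1 to 3 without Rosa 16OHE females or any 1 R899X library. For Delx4 4 were called, and 0 to 4 leaving out each library, with 0 without Rosa control females or Delx4 control males and 1 without Rosa control males. For sex the count was 1, and 2 with DESeq2, without the filter or with copper by list position, and 1 to 3 leaving out each library (2 without Rosa 16OHE females, 3 without Rosa 16OHE males). For 16OHE it was 0, and 1 with DESeq2, unstranded counts or copper by list position, 2 without the filter and 0 to 1 leaving out each library (1 without Delx4 control females, Rosa 16OHE females or R899X 16OHE males). For 16OHE by sex it was 0, 2 without the filter and 0 to 1 leaving out each library.

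The sex by R899X value of Azgp1, -1.98, was 0.03 in DESeq2 and 2.43 without Delx4 control females or without Delx4 control males, with a range of -2.54 to 2.43 leaving out each library. Of the 20 genotype differences of the 10 genes, 18 kept their sign under all 16 or 17 alternatives. The exceptions were Hsd3b5 for R899X (-0.98 to 0.81) and B4galnt1 for Delx4 (-0.18 to 0.31). Of 42 other sex, 16OHE and interaction values, 28 changed sign in some alternative and 1 passed 0.05 in one. With 5 neighbours per side, again none was called. The causes were not tested. Depth limits Azgp1 in Rosa and Hsd3b5 outside Delx4.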
